A study of Mus musculus with 15 samples.

Results

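Satellite cell and myogenic regeneration genes were followed through the gastrocnemius of aged mice that had run downhill or had stayed sedentary. The list held 9 genes, chosen by symbol: Pax7, Myf5, Myod1, Myog, Myf6, Mymk, Mymx, Myh3 and Myh8. All 9 matched 1 gene each among the 55450 genes counted, and all 9 were among the 16920 genes with enough counts to be tested. The mice were C57BL/6JN females, more than 17 months old and not genetically modified, drawn from a cohort of 47 whose frailty was scored on treadmill distance, grip strength, Rotarod, body weight and a frailty index. Mice with at most 1 positive marker formed the Low group and mice with at least 2 formed the High group, and the sample labels call these groups robust and frail. The markers were totalled after death against cut-offs set by the cohort itself, so frailty was observed and not assigned, whereas running was assigned at random. Sequencing covered 4 mice of each group except the sedentary High group, which had 3, with 1 library per mouse, and groups are named by frailty and treatment (Low Control to High Run). Run mice had completed 2 bouts of 10 stages on a treadmill sloping down by 22 degrees at 13 m/min and were sampled 24 h after the last bout, a single time point, while Control mice stayed in their cages.

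Adult skeletal muscle is repaired by satellite cells, stem cells that lie beneath the basal lamina of the fibre and are marked by the transcription factor Pax7. After injury they divide and switch on the myogenic regulatory factors, bHLH proteins that bind the E-box: Myf5 and Myod1 mark commitment, Myog marks entry into differentiation, and Myf6 (Mrf4) is also the main factor of the mature fibre. The differentiating cells then fuse through the membrane proteins myomaker (Mymk) and myomixer (Mymx), and the young fibre makes embryonic (Myh3) and perinatal (Myh8) myosin heavy chain before the adult forms replace them. Some of these genes also have sources other than repair, since Myog is made in denervated fibres and Myh3 and Myh8 in the fibres of muscle spindles. A bulk library cannot tell fewer cells of a type from less RNA per cell.

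On GRCm38 the 9 protein-coding genes lie on 7 chromosomes, and 2 pairs are neighbours. Pax7 (ENSMUSG00000028736) is on chr4:139737062-139833528, Myod1 (ENSMUSG00000009471) on chr7:46376474-46379099, Myog (ENSMUSG00000026459) on chr1:134289989-134292548, Mymk (ENSMUSG00000009214) on chr2:27061636-27072179 and Mymx (ENSMUSG00000079471) on chr17:45600971-45602102. Myf5 (ENSMUSG00000000435, chr10:107482908-107486134) sits beside Myf6 (ENSMUSG00000035923, chr10:107492853-107494737). Myh3 (ENSMUSG00000020908, chr11:67078300-67102291) and Myh8 (ENSMUSG00000055775, chr11:67277124-67308634) belong to the cluster of fast myosin heavy chains. That cluster shares sequence: 4.81% of the 50-base words of the longest Myh3 transcript and 21.4% of those of Myh8 also occur in other annotated genes, mostly adult myosins, so the Myh8 level in particular is uncertain. With 100-base words the shares were 1.15% for Myh3 and 6.61% for Myh8. The other 7 members shared no 50-base word with another gene.

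The promoters of Myog and Myh3 are shown because these genes had the differences the results turn on, with that of Myh8 as the clustered neighbour of Myh3. Each runs from 250 bases before to 50 bases after the RefSeq start on GRCm38.p6, on the plus strand, at chr1:134289754-134290053, chr11:67078050-67078349 and chr11:67276874-67277173 in that order. Capitals mark every E-box (CANNTG, which reads the same on both strands) and every match to the MEF2 consensus.
Myog: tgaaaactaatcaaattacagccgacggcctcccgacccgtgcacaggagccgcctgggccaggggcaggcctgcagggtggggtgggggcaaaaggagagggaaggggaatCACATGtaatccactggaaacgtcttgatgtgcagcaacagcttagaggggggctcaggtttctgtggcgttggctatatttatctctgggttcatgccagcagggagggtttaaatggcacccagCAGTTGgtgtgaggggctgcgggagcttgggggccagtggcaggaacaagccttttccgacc
Myh3: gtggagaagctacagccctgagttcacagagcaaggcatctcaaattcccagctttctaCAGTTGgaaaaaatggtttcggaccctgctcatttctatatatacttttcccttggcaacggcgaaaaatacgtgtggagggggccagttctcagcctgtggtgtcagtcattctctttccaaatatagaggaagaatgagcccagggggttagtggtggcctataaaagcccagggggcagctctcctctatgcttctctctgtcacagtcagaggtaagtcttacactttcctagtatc
Myh8: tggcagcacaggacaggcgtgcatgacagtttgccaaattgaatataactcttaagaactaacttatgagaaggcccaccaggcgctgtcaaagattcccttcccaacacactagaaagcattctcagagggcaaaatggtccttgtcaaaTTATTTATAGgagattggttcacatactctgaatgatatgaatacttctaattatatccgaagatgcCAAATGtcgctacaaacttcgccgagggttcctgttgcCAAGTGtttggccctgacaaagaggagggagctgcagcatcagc
The Myog window held E-boxes beginning at positions -138 (CACATG) and -12 (CAGTTG) relative to the start, Myh3 held 1 at -191 (CAGTTG), and Myh8 held them at -32 (CAAATG) and 6 (CAAGTG). The Myh8 window also held the 1 MEF2 match, TTATTTATAG at -99, which overlapped no E-box. Sites that depart from the consensus were not marked, so a window without a match is not shown to lack a MEF2 site. An E-box is present in 72.3% of the 32851 RefSeq windows of this length and the MEF2 consensus in 3.19%, so most promoter windows hold an E-box. Pax7 and Myf5 matched as well and their windows held neither motif. Myod1, Myf6, Mymk and Mymx were not matched.

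The libraries held between 19395125 and 30699216 counts of uniquely aligned read pairs, with a median of 25926420. On the first principal component D9 (Low Control, -90.3) and D62 (High Run, -58.1) stood apart from the other mice, which lay between -19.7 and 27.8, and the results below are given with and without D62 where it decides them. On the second component D68 (Low Run, 43.95), D53 (High Run, 43.1) and D57 (Low Run, 34.7) lay above the other mice, which ran from -25.2 to 17.2. Adult fibre genes together made up between 111159 and 175319 CPM (counts scaled to a common library size of 1e+06 by TMM) in each mouse, as a sample of limb muscle would hold, with D62 lowest. Values are CPM unless stated, errors are SD over mice, and differences are log2 fold changes from edgeR's quasi-likelihood F-test with its standard error (SE) and a false discovery rate (FDR) over all 16920 genes, called at 0.1.

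Per kilobase of exon, so that genes can be compared, Myf6 was by far the most abundant member, with a mean level over the 15 mice of 114.2 RPKM (CPM divided by exon length in kilobases) against 8.96 for Myog and 8.17 for Myod1. Myh3 had a mean level of 2.30 RPKM. Myh8 had 0.892 RPKM over its annotated exons, which together span 11772 bases, but 1.71 ± 0.446 over the 6149 bases of its longest transcript. The remaining members were under 1 RPKM, at 0.769 for Myf5, 0.569 for Mymk, 0.529 for Mymx and 0.365 for Pax7. The steps in this order from Myf6 to Myog and from Myod1 to Myh3 exceeded the SD over mice of either gene. The step from Myh3 to Myh8 did so over annotated exons but not over the longest transcripts, where Myh3 had 2.31 ± 0.933 RPKM. Mice differed most in Mymx, followed by Mymk (coefficient of variation 80.5%) and Myog (78.9%), and least in Myf5 (20.3%), Myf6 and Myh8 (26.1% each). Counts behind these levels ran from 2220 to 7327 per mouse for Myf6 but from 7 to 77 for Mymk and from 0 to 48 for Mymx.

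By edgeR's test no member passed an FDR of 0.1 in any of the 6 comparisons made, and neither did any other gene, while DESeq2 and edgeR without a filter on low counts each called 1 member, Myh3, in High mice. In High mice the log2 difference with running was above 0 for 8 of the 9 members, as it was for 57.2% of all genes tested, with embryonic myosin Myh3 at 2.45-fold, Myog at 3.11-fold, the fusion protein Mymk at 3.89-fold and Myf6 at 1.42-fold its sedentary level, each at an unadjusted p under 0.05 and none at an FDR under 0.956. For Myog and Myf6 that p was above 0.05 without mouse D62. In Low mice 0 of 9 members reached an unadjusted p of 0.05. The stem cell factor Pax7 and the commitment factors Myf5 and Myod1 had no difference beyond the spread between mice in any comparison.

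**Figure D1:**
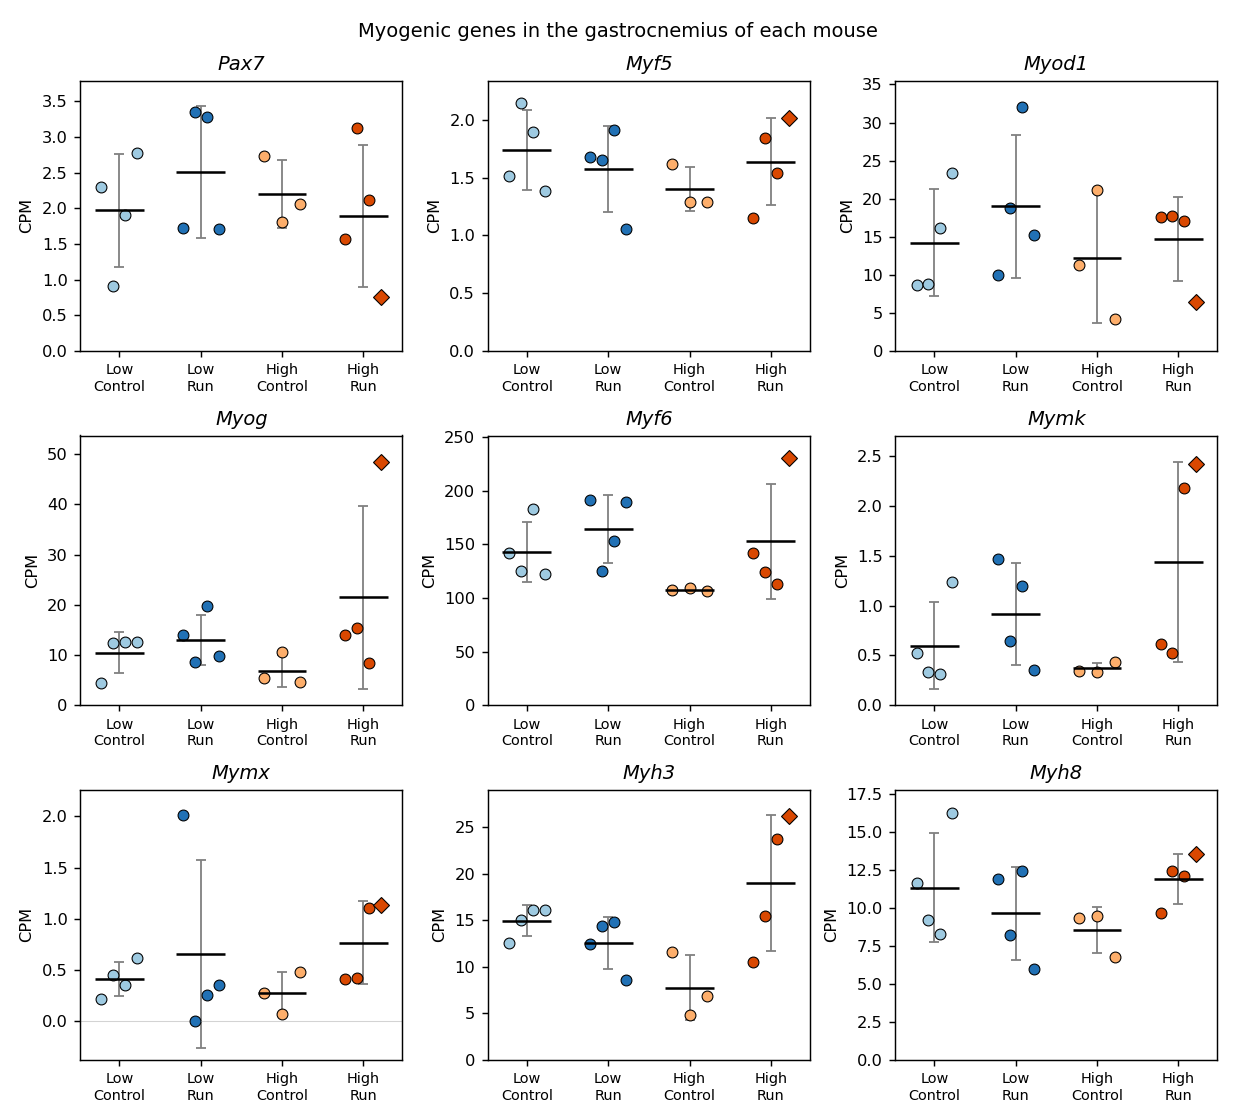
CPM of each of the 9 genes in each mouse (circles; the diamond is mouse D62) in the 4 groups, with the group mean (black line) and SD (grey bar). The High Run points of Myf6, Mymk and Myh8 all lie above the High Control points, and D62 is the highest mouse for Myog, Myf6, Mymk and Myh3 and the lowest for Pax7.

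Pax7 marks the satellite cell itself. Its level in Low Control mice D8, D9, D11 and D98 was 2.30, 0.910, 1.90 and 2.78 CPM, and in Low Run mice D57, D61, D66 and D68 it was 1.72, 3.35, 3.28 and 1.70 CPM. High Control mice D23, D25 and D67 had 2.74, 1.81 and 2.06 CPM, and High Run mice D49, D52, D53 and D62 had 1.56, 3.13, 2.11 and 0.755 CPM. The groups overlapped throughout, and the lowest values of all belonged to D62 and D9, the mice that stood apart on the first principal component. The log2 difference was 0.35 (SE 0.40, FDR 0.682) in Low and -0.22 (SE 0.44, FDR 0.977) in High mice, and the 95% interval of the second, from -1.15 to 0.70 on the log2 scale, reaches down to 0.452-fold.

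Myf5, the other early factor, was the steadiest member. It lay between 1.39 and 2.15 CPM in Low Control, between 1.05 and 1.92 CPM in Low Run, between 1.29 and 1.62 CPM in High Control and between 1.15 and 2.01 CPM in High Run mice. All 4 ranges overlapped, and the log2 difference was -0.14 (SE 0.25) with running in Low mice and 0.23 (SE 0.27) in High mice.

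Myod1, which commits the activated cell to the muscle lineage, was far more variable. It measured 8.59, 8.73, 16.2 and 23.4 CPM in Low Control mice, 10.0, 18.8, 32.0 and 15.2 CPM in Low Run mice, 11.2, 21.1 and 4.16 CPM in High Control mice, and 17.6, 17.8, 17.0 and 6.45 CPM in High Run mice, in the order of mice given for Pax7. Values overlapped among all groups, and 3 of the 4 High Run mice lay close together with D62 well below them. The log2 difference was 0.42 (SE 0.47) in Low mice and 0.26 (SE 0.51) in High mice, in both cases smaller than its own error.

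Myog, the factor of terminal differentiation, measured 4.38, 12.3, 12.6 and 12.7 CPM in Low Control mice and 13.9, 8.67, 19.8 and 9.72 CPM in Low Run mice. In High Control mice it was 5.52, 10.6 and 4.64 CPM, and in High Run mice 14.0, 15.4, 8.32 and 48.4 CPM. Of the High Run mice 3 exceeded every High Control mouse, and D62 held the highest value of the 15. The log2 difference in High mice was 1.64 (SE 0.54, unadjusted p = 0.00852, FDR 0.956), and without D62 it was 0.85 (unadjusted p = 0.0588). In Low mice it was 0.31 (SE 0.48, FDR 0.771).

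The balance of Myog to Myod1 singled out the same mouse. In 14 mice the CPM ratio of Myog to Myod1 lay between 0.461 and 1.41, and in D62 it was 7.51. Myod1 was low and Myog high in this mouse at once, while D67, the mouse with the lowest Myod1, had a ratio of 1.11. The group median of the ratio was lowest in High Control, at 0.499, and highest in High Run, at 0.831, and all groups overlapped.

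Myf6, abundant in mature fibres, was the only member whose High Control mice were almost identical, at 107.2, 109.0 and 106.2 CPM. High Run mice had 142.3, 124.3, 113.4 and 230.6 CPM, so that each exceeded each High Control mouse. Low Control mice had 141.8, 124.9, 182.8 and 122.2 CPM, and Low Run mice 191.5, 125.2, 152.9 and 188.9 CPM, with overlap. The log2 difference was 0.51 in High mice (SE 0.23, unadjusted p = 0.0430, FDR 0.956) and 0.23 (unadjusted p = 0.227) without D62. In Low mice it was 0.20 (SE 0.21).

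Mymk encodes myomaker, which myogenic cells need in order to fuse. It measured 0.520, 0.331, 0.309 and 1.23 CPM in Low Control mice and 1.47, 0.648, 1.19 and 0.351 CPM in Low Run mice. High Control mice had 0.347, 0.332 and 0.431 CPM and High Run mice 0.617, 0.521, 2.18 and 2.42 CPM. Every High Run mouse exceeded every High Control mouse, but D49 and D52 by a small margin and D53 and D62 by a wide one. The log2 difference in High mice was 1.96 (SE 0.67, unadjusted p = 0.00979, FDR 0.956), or 1.57 without D62 (unadjusted p = 0.0335), and in Low mice 0.60 (SE 0.59). With voom and sample quality weights, which count the mice that stand apart for less, the High difference was 0.87 (unadjusted p = 0.126).

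Mymx encodes myomixer, the partner of myomaker, and was close to the limit of detection. Low Control mice had 0.217, 0.455, 0.354 and 0.617 CPM, Low Run mice 2.02, 0, 0.256 and 0.351 CPM, High Control mice 0.270, 0.0738 and 0.478 CPM, and High Run mice 0.411, 0.417, 1.11 and 1.13 CPM. The 0 in D61 allows a level of up to 0.108 CPM (3 counts, counting error only). D53 and D62 had the highest values of the High groups, as for Mymk, yet the highest value of all was in Low Run mouse D57. The log2 difference was 1.52 in High mice (SE 0.96, unadjusted p = 0.133, FDR 0.956) and 0.65 in Low mice (SE 0.85, unadjusted p = 0.451). The means were 0.274 ± 0.202 CPM in High Control and 0.767 ± 0.408 CPM in High Run mice, further apart than either SD. Values of Run and Control mice still overlapped in both frailty groups.

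Myh3, embryonic myosin, had the smallest p of the 9 members in High mice. It measured 11.6, 4.80 and 6.89 CPM in High Control mice and 10.5, 15.5, 23.7 and 26.2 CPM in High Run mice. Of the High Run mice 3 lay above every High Control mouse, D49 lay below High Control mouse D23, and D53 and D62 were again highest. Low Control mice had 12.5, 15.1, 16.1 and 16.1 CPM and Low Run mice 12.4, 14.4, 14.8 and 8.62 CPM, so that all 4 Low Run mice were below the Low Control mean of 15.0 ± 1.69. The log2 difference was 1.29 in High mice (SE 0.32, 95% interval 0.61 to 1.98, unadjusted p = 0.00104, FDR 0.956) and -0.25 in Low mice (SE 0.29, FDR 0.679).

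Unlike Myog and Myf6, Myh3 did not rest on D62 alone. With each of the 15 mice left out in turn its High difference stayed between 1.04 and 1.70, at 1.09 without D62, and its edgeR unadjusted p between 0.000172 and 0.00840 (FDR at least 0.683). No refit left out D53 and D62, the highest High Run mice for Myh3, together. The call depended on the tool. DESeq2's Wald test gave a log2 difference of 1.27 at an FDR of 0.0964, among the 15 genes it called (0.0963% of those it tested), and edgeR without a filter on low counts gave an FDR of 0.0836, among 19 genes (0.0536%). Voom with quality weights gave 0.145. No other member was called by these 3 fits in this comparison.

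The share of Myh3 among myosin heavy chains was also compared, since adult isoforms differed too. Scaled to a sum of 1e+06 over the RPKM of Myh1, Myh2, Myh4, Myh7, Myh3 and Myh8, Myh3 made up 178, 83.9 and 119 in High Control mice and 182, 304, 605 and 690 in High Run mice, without overlap between these groups. Low Control mice lay between 165 and 292 and Low Run mice between 232 and 297. Embryonic myosin was thus under 0.1% of myosin transcripts in every mouse.

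Myh8, perinatal myosin, measured 9.38, 9.48 and 6.79 CPM in High Control mice and 9.66, 12.4, 12.1 and 13.6 CPM in High Run mice. These groups did not overlap, though D25 and D49 were close. Low Control mice had 11.7, 9.22, 8.26 and 16.3 CPM and Low Run mice 11.9, 8.24, 12.4 and 6.01 CPM. The log2 difference was 0.48 in High mice (SE 0.27, unadjusted p = 0.0883, FDR 0.956) and -0.23 in Low mice (SE 0.24).

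**Figure D2:**
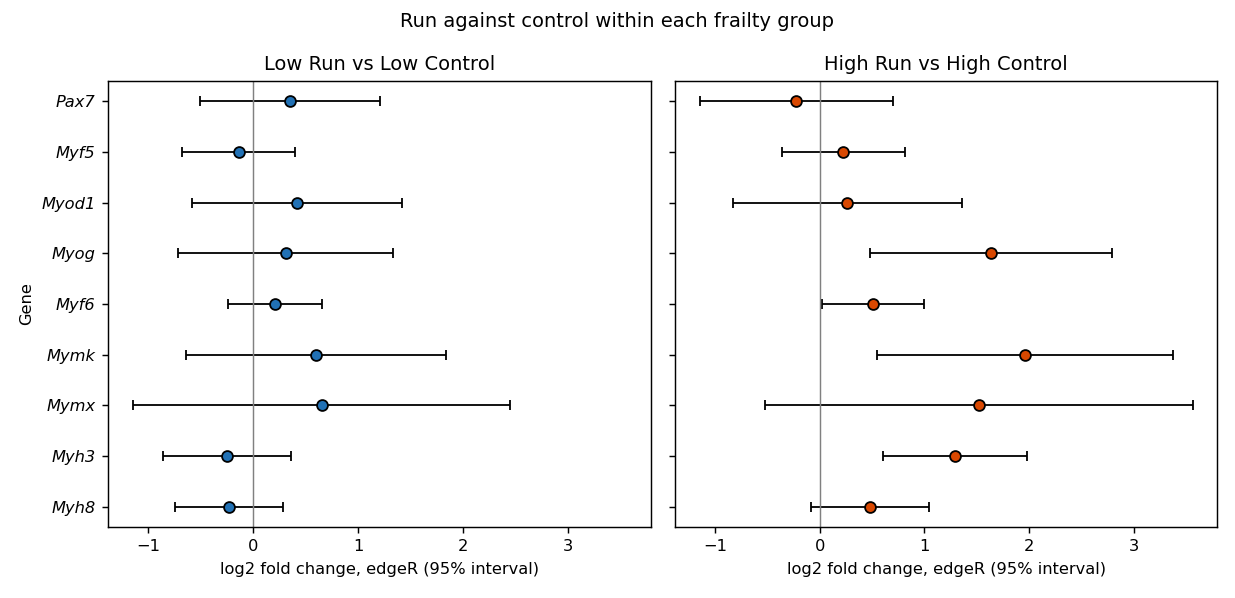
Log2 fold change of each gene from edgeR, Low Run against Low Control on the left and High Run against High Control on the right, with 95% intervals (bars) around the estimate (points). In High mice the intervals of Myog, Myf6, Mymk and Myh3 lie above 0, and in Low mice all 9 intervals include 0.

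The members were set against all 16920 genes tested. In High Run against High Control 4 of 9 members had an unadjusted p under 0.05, all of them higher, where 5.18% of all genes did and 3.28% were higher. At an FDR of 0.1 it was 0% in each comparison. Lower genes made up 1.9%. The median log2 difference was 0.51 over the members and 0.05 over all genes. Without D62, Myog and Myf6 no longer had an unadjusted p under 0.05. The number of all genes with such a p was then 811, against 877 with D62. In Low Run against Low Control 0 of 9 members had such a p, where 13.4% of genes did (5.92% higher and 7.52% lower), with medians of 0.31 and 0.02. The number of genes with such a p in Low mice was 2274, but 846 without D9 and 1253 without D57. Every mouse of one group exceeded every mouse of the other for 3 of 9 members in High mice (Myf6, Mymk and Myh8), against 3.45% of all genes, and for 0 members in Low mice, against 3.32% higher and 3.6% lower.

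The difference between these differences was tested as the Frailty × Run interaction. It was 1.54 on the log2 scale for Myh3 (SE 0.43, 95% interval 0.63 to 2.45, unadjusted p = 0.00247, FDR 0.600), the 1 member of 9 at an unadjusted p under 0.05, where 7.93% of all genes were and 5.24% were above 0. The number of genes behind that background was 1342, but 785 without D9, 828 without D67, 866 without D62 and 2357 without D53. The value for Myh3 was between 1.29 and 1.96 with each mouse left out. Myh8, its neighbour in the cluster, had 0.72 (SE 0.36, unadjusted p = 0.0643), Myog 1.33 (SE 0.72, unadjusted p = 0.0829) and Mymk 1.36 (SE 0.88, unadjusted p = 0.143). For Myog it was 0.55 (unadjusted p = 0.329) without D62. Pax7 (-0.57, SE 0.59), Myf5 (0.36, SE 0.37), Myod1 (-0.15, SE 0.69), Myf6 (0.30, SE 0.31) and Mymx (0.87, SE 1.28) lay within 1 SE of 0. The Low and High responses were therefore not shown to differ for any member at the FDR used.

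Averaged over both frailty groups, the run effect was above 0 for all 9 members and for 53.4% of all genes, with a median of 0.36 against 0.02 over all genes. An unadjusted p under 0.05 was reached by 4 members, where 8.63% of all genes were (5.6% higher): Mymk at 1.28 (SE 0.44, FDR 0.461), Myog at 0.97 (SE 0.36, FDR 0.486), Myh3 at 0.52 (SE 0.21, FDR 0.530) and Myf6 at 0.36 (SE 0.16, FDR 0.555). These are the members named for High mice, whose differences are part of this average. Without D62, Mymk alone of the 4 kept an unadjusted p under 0.05, with 1.08 (unadjusted p = 0.0261, FDR 0.405).

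Between sedentary mice the log2 difference of High Control against Low Control was above 0 for 1 of the 9 members, Pax7, and for 47.2% of all genes. Values overlapped between these groups for 7 of the 9 members. High Control also had the lowest of the 4 group means for 8 of the 9 members, Pax7 being the exception. How many of all genes had this order was not counted. Against Low Control the log2 difference was -0.95 for Myh3 (SE 0.32, unadjusted p = 0.00933, FDR 0.704), the only member at an unadjusted p under 0.05, where 5.86% of all genes were and 4.06% were lower. The number of such genes was 992, but 443 without D9, 510 without D25, 548 without D67 and 1805 without D98. Myf6 (-0.41, SE 0.23, unadjusted p = 0.0925) and Myh3 were lower in every High Control than in every Low Control mouse, 2 of 9 members against 5.28% of all genes. The median was -0.41 over the members and -0.02 over all genes. The same 3 High Control mice enter this comparison and that of High Run against High Control, so the 2 are not independent. Side by side, Myh3 was at 15.0 ± 1.69 CPM in Low Control (n = 4), 7.75 ± 3.47 CPM in High Control (n = 3) and 19.0 ± 7.28 CPM in High Run mice (n = 4), and Myf6 at 142.9 ± 28.0, 107.5 ± 1.41 and 152.6 ± 53.3 CPM.

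After running, High and Low mice were compared directly. None of 9 members reached an unadjusted p of 0.05, where 2.51% of all genes did (424, and 979 without D53), and no member separated the mice of both groups, against 0.721% of genes higher and 0.78% lower. Myh3 came nearest, at 0.60 (SE 0.29, unadjusted p = 0.0537, FDR 0.999). The others ran from 0.73 for Myog (SE 0.48) to -0.42 for Pax7 (SE 0.40).

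**Figure D3:**
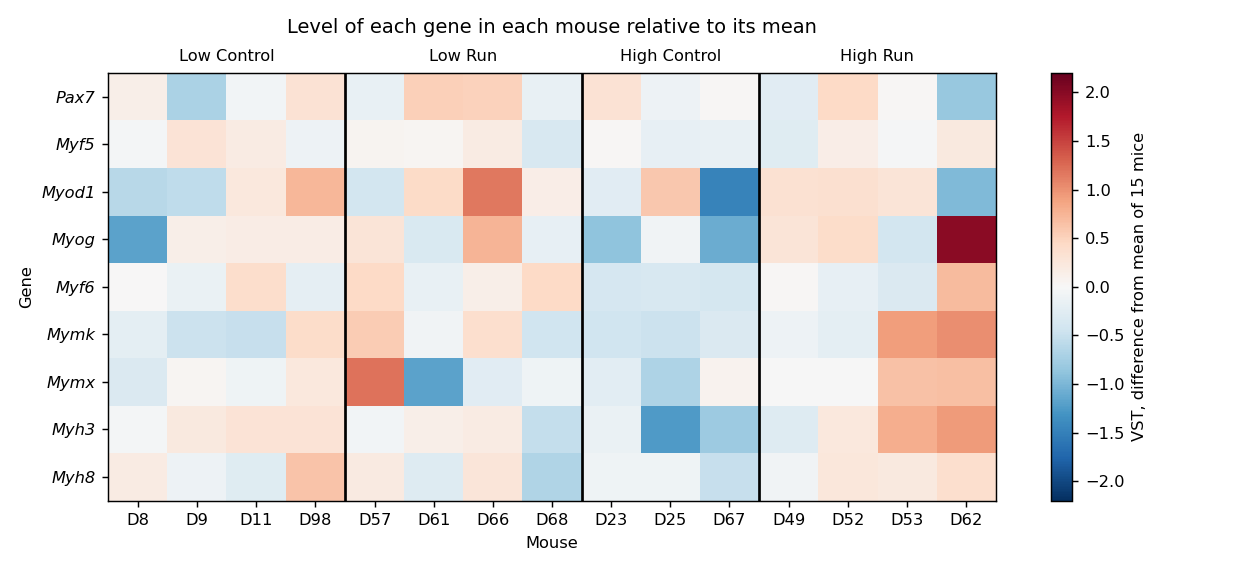
Deposited variance-stabilized value (VST, a log2-like scale) of each gene in each mouse, as the difference from the mean of the 15 mice, red above and blue below. D53 and D62 are above the mean for Mymk, Mymx, Myh3 and Myh8 alike, Myf6 and Mymk are below it in all 3 High Control mice, and the Myog value of D62 is 1.99 above its mean.

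Across the 15 mice the 36 pairs of members had a median Pearson r of 0.29 on log2 CPM, 8 pairs were over 0.5 and 9 were below 0. Highest was Mymk with Myh8 (0.70) and Mymk with Myh3 (0.65), followed by Myf5 with Myh3 (0.65), Myog with Myf6 (0.64), Mymk with Mymx (0.58) and Myh3 with Myh8 (0.58). Leaving out D62 took Myog with Myf6 to 0.42 and Mymk with Myh8 to 0.66, and it took Myod1 with Myog from 0.20 to 0.68. The points share library depth, group and, for Myh3 and Myh8, sequence, so these values are descriptions of 15 mice.

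The genes most like each member over all 15 mice, by r of log2 CPM among all genes tested, were mostly outside the myogenic pathway. Pax7 was nearest to Rab36 (0.94), Rassf3 (0.92) and Tnk2 (0.91), and Myod1 to Gmcl1 (0.92), Tcte2 (0.87) and A330009N23Rik (0.85). Myog was nearest to Ngfr, the low-affinity neurotrophin receptor (0.89, and 0.81 without D62), Fubp1 (0.85) and Piwil2 (0.85). Myf6 was nearest to Cstb (0.84), Cpne2 (0.83) and Cacng1, a subunit of the muscle calcium channel (0.81). Myh3 was nearest to Mrgbp (0.82), Myoz2, a Z-disc protein of slow fibres (0.78), and Tecrl (0.77), and Myh8 to Atp1b4 (0.86), Wdr38 (0.81) and N4bp2os (0.77). Mymk was nearest to Eid1 (0.85), Gm10263 (0.82) and Yjefn3 (0.81), Myf5 to Ush1g (0.86), Gm7684 (0.85) and C730034F03Rik (0.83), and Mymx to Rps2-ps7 (0.86), Gm6988 and Gm4883 (0.85 each). Nothing about shared function or control follows from these values.

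The rest of the pathway was read from lists of known genes, each given as the number at an unadjusted p under 0.05 of those tested, with none called by edgeR at an FDR of 0.1 in either run comparison. DESeq2 called 5 of these genes in High mice (Ankrd1, Ctss, Lgals3, Mpeg1 and Srf), voom with quality weights the same 5 and Id2, and edgeR without a filter on low counts 5 in High (Sln in place of Srf) and 2 in Low mice (Cidec and Lep). The lowest FDR of any of these genes by edgeR's test was 0.358 in Low and 0.956 in High mice, and 9 listed genes (Pax3, Ccnb1, Bub1, Adgrb1, Adgrb3, Fer1l5, Hgf, Wnt7a and Calb1) had too few counts to be tested. Of all genes tested, 3.28% were higher and 1.9% lower at an unadjusted p under 0.05 in High mice, and 5.92% and 7.52% in Low mice. Of 16 satellite cell genes tested besides Pax7, 1 was higher and 0 were lower in High Run against High Control (median log2 difference -0.04), and 1 was higher in Low Run against Low Control (0.07). The first was Sox8, a transcription factor (0.31 to 0.55 CPM in High Control and 0.66 to 1.11 CPM in High Run, log2 1.05, SE 0.45), and the second Vcam1, an adhesion molecule (log2 0.60, SE 0.24). Sdc4, a surface proteoglycan, had -0.86 (SE 0.42) in Low mice, with 31.4 to 159 CPM in Low Control and 30.3 to 44.1 CPM in Low Run, and -0.05 (SE 0.45) in High mice.

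Of 10 cell cycle genes tested, 3 were higher in Low Run (median 0.55) and 1 in High Run mice (median 0.53), with none lower. The proliferation marker Mki67 had a log2 difference of 1.45 in Low (SE 0.64) and 1.54 in High mice (SE 0.71), from levels under 1 CPM in every Control mouse. It ran from 0.165 to 0.887 CPM in Low Control and, overlapping, from 0.351 to 3.38 CPM in Low Run mice (mean 1.28 ± 1.41). In High Control it ran from 0.335 to 0.463 CPM and in High Run from 0.535 to 1.56 CPM. These High groups did not overlap, and 3.45% of all genes were higher in this way. Top2a, a topoisomerase of dividing cells, had 1.74 in Low (SE 0.76, with 0.294 to 4.21 CPM in Low Run) and 1.30 in High mice (SE 0.85), and the replication helicase subunit Mcm5 0.70 (SE 0.29) and 0.06 (SE 0.30). The summed level of the list overlapped between groups, at 95.7 to 162 CPM in Low Control, 101 to 188 CPM in Low Run, 108 to 169 CPM in High Control and 99.7 to 115 CPM in High Run mice. Most of this sum was Ube2c, with a mean of 99.0 CPM over all mice against 0.865 CPM for Mki67. Ube2c had -0.44 (SE 0.28) in High mice, below the median of the list, so the sum says little about the other genes. These cell cycle genes are expressed by any dividing cell.

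Among 11 partners and inhibitors of the myogenic factors, Id2, which sequesters the E proteins that the factors need, was higher in both groups, by 0.59 in Low (SE 0.20) and 0.76 in High mice (SE 0.22). Its range was 4.38 to 5.16 CPM in Low Control, 5.51 to 8.17 CPM in Low Run, 2.49 to 4.46 CPM in High Control and 4.83 to 6.78 CPM in High Run mice, without overlap within either frailty group. Id3 had 0.42 (SE 0.17) in High mice and -0.06 (SE 0.16) in Low mice, and the Notch target Hes1 -0.47 (SE 0.19) and 0.14 (SE 0.18). Of 16 cofactors 3 were lower and none higher in High mice (median -0.01), among them Srf, a factor for muscle structural genes, at -0.42 (SE 0.11), with 96.6 to 100 CPM in High Control and 64.0 to 77.6 CPM in High Run mice. The chromatin remodelling subunit Smarcd3 had -0.46 there (SE 0.17), and Mef2d, a partner of the myogenic factors, -0.01 in High (SE 0.22) and -0.52 in Low mice (SE 0.21).

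Of the 15 fusion genes tested besides Mymk and Mymx, 0 reached an unadjusted p of 0.05 in High mice (median 0.04), and in Low mice 1 was lower, the adhesion protein Kirrel at -0.39 (SE 0.17). Kirrel3 had -0.78 in High mice (SE 0.43) and Itgb1, an integrin subunit, 0.03 (SE 0.15). Of 14 growth factors and receptors of satellite cells, 1 was higher in High mice, the oncostatin M receptor Osmr (0.46, SE 0.21), and 1 lower in Low mice, the Wnt receptor Fzd7 (-0.82, SE 0.23). Rspo3, a Wnt agonist, had 0.67 in Low (SE 0.37) and 0.30 in High mice (SE 0.40).

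Genes of immature or stressed fibres were read beside Myh3. Of 14 tested, 6 were higher and 0 lower in High mice (median 0.47), against 1 higher and 2 lower in Low mice (0.38). In the interaction the list's median was 0.47, with 10 of 14 above 0. There 1 gene was higher and 1 lower, where 7.93% of all genes had such a p. Ankrd1, a stretch-responsive titin-binding protein, was at 34.3 to 36.8 CPM in High Control and 57.3 to 89.8 CPM in High Run mice (log2 1.00, SE 0.23, FDR 0.956), and had 0.14 (SE 0.21) in Low mice. Sln, sarcolipin, an inhibitor of the calcium pump, was at 4.98 to 8.78 and 15.6 to 88.7 CPM (log2 2.67, SE 0.73), and had 1.33 (SE 0.62) in Low mice. The fetal growth factor Igf2 went the other way, with -0.97 in Low (SE 0.35) and -0.19 in High mice (SE 0.36). Actc1 and Mybph ran against Myh3, each at an unadjusted p above 0.05. Actc1 had 1.24 in Low (SE 0.61) and -1.05 in High mice (SE 0.65). Mybph had 0.81 (SE 0.59) and -0.69 (SE 0.63). Of the 14 genes, 11 were above 0 in High and 10 in Low mice. The summed level of the list was 1294 to 1772 CPM in High Control and 1096 to 1476 CPM in High Run mice. A few abundant genes set the sum, with Mybph the largest (mean 558.6 CPM over all mice).

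Denervation genes were read beside Myog. Of 12 tested, 5 were higher and none lower in High mice (median 0.64), and in Low mice 0 had an unadjusted p under 0.05 (0.07). The acetylcholine receptor subunits Chrnb1 (0.60, SE 0.22) and Chrna1 (0.75, SE 0.31) and the adhesion molecule Ncam1 (0.55, SE 0.21) were among them. Chrng and Ncam1 are on this list and on that of immature or stressed fibres, so the counts of the 2 lists in High mice share 2 genes. The summed level was 221 to 312 CPM in High Control and 251 to 448 CPM in High Run mice. Whether fibres that had lost their nerve contributed to Myog was not tested. Muscle spindle genes, 4 of which were tested, had none at an unadjusted p of 0.05, with Myh6 at 0.53 (SE 0.54), Etv4 at 0.19 (SE 0.31) and Egr3 at 0.04 (SE 0.59) in High mice.

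Markers of other cells were read beside the members. Macrophage markers were higher for 7 of 10 genes and lower for none in High mice (median 0.88), led by Ctss (1.70, SE 0.33), Lgals3 (1.46, SE 0.32) and Mpeg1 (1.31, SE 0.29), and for 2 of 10 in Low mice (0.47). The paper had already reported Ctss and Mpeg1 from these libraries as higher with running in High mice only, so they are no independent reading. The summed level of the 10 markers was 77.4 to 117 CPM in High Control and 156 to 249 CPM in High Run mice, without overlap, and 99.9 to 182 and 147 to 224 CPM in Low Control and Low Run mice. D62, highest for Myog and Myh3, had the lowest macrophage sum of the High Run mice, 156 CPM. Of the Schwann cell markers, Mbp, a myelin protein, had 0.44 (SE 0.35) and Sox10, a transcription factor, 0.55 (SE 0.32) in High mice. The part of these cells in the myogenic values was not tested.

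**Figure D4:**
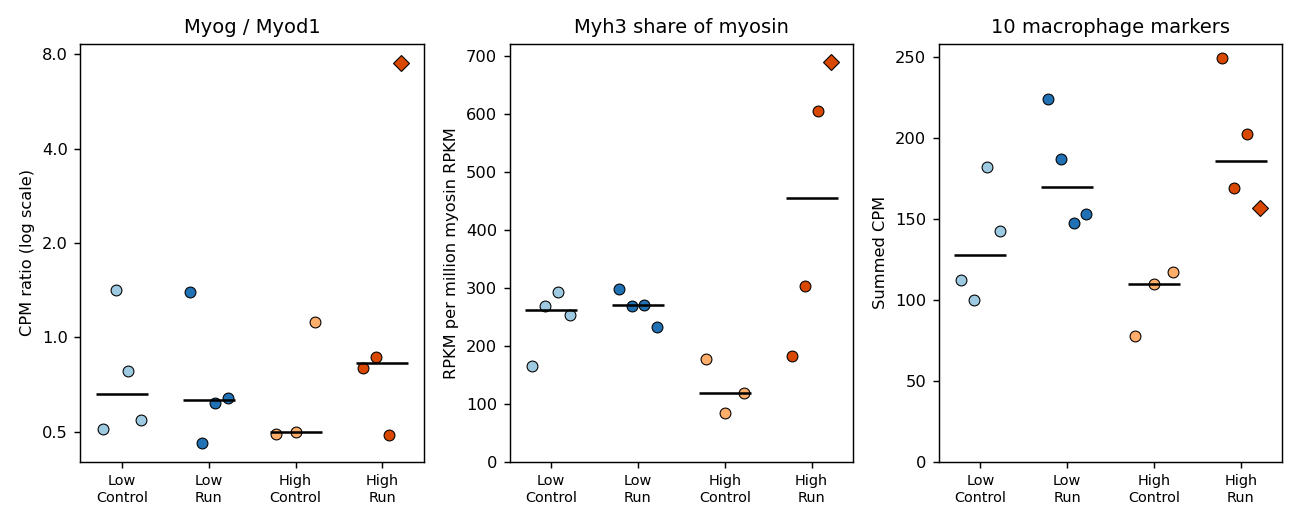
CPM ratio of Myog to Myod1 (left, log axis), RPKM of Myh3 scaled to a myosin heavy chain sum of 1e+06 (middle) and summed CPM of 10 macrophage markers (right) in each mouse, with the group median as a line and mouse D62 as a diamond. D62 has a Myog to Myod1 ratio of 7.51 against at most 1.41 elsewhere, D53 and D62 have the highest Myh3 shares at 605 and 690, and the High Run macrophage sums lie above those of High Control.

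Few markers of the remaining cell types had an unadjusted p under 0.05. Of 8 fibro-adipogenic progenitor genes 1 was higher, Ly6a (0.56, SE 0.24), and Col1a1 and Col1a2 had -0.03 (SE 0.68) and 0.03 (SE 0.59) there but 1.31 (SE 0.64) and 1.05 (SE 0.56) in Low mice. Of 5 endothelial genes none did in either group, with Vwf at 0.44 (SE 0.25), Kdr at 0.35 (SE 0.22) and Pecam1 at 0.19 (SE 0.17) in High mice. Of 5 adipocyte genes 2 were lower in Low mice, Cidec (-1.04, SE 0.30) and Lep (-1.65, SE 0.49), and Adipoq had -0.56 (SE 0.33). Of 8 adult fibre genes, Myh4, the fastest myosin, was lower in both groups, by -0.48 in Low (SE 0.17) and -0.44 in High mice (SE 0.19), while Myh7 had 0.61 in High mice (SE 0.33) and Mylpf 0.40 in Low mice (SE 0.21).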

How the data were processed

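Gastrocnemius RNA of 15 mice was analyzed, grouped by the frailty and run labels, which name no batch. The authors aligned reads with STAR 2.7.9a to mm10 and deposited counts per gene, whole numbers of uniquely aligned proper pairs on the strand of each non-mitochondrial Ensembl gene from featureCounts, without normalization. The authors also deposited a DESeq2 variance-stabilizing transformation of these counts on a scale near log2, used here for a plot only. All columns were used.

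Genes were named from GENCODE M21 (55190 of 55450 matched), kept by edgeR's filterByExpr, scaled by TMM and tested in edgeR 4.0.16 (R 4.3.3) by the quasi-likelihood F-test with 1 mean per group over all 15 mice, with Benjamini-Hochberg adjustment over 16920 genes. The contrasts were running within each frailty group, the interaction and the average of these, and frailty within sedentary and within run mice. RPKM used the union of annotated exons. Correlations used log2 CPM with a prior count of 2. Named list genes are up to 3 per list with the smallest unadjusted p in either run comparison, and likeness takes the 3 highest r. Ube2c is named besides because it sets a sum, Chrng because 2 lists hold it, and Actc1 and Mybph because their estimates ran against Myh3. The members and lists were chosen with earlier results of these data known. Each library is 1 mouse by its label. On simulated data, the High comparison recovered 168 of 196 genes changed by 2 on the log2 scale, with 14 false calls among 16595 genes. Alternatives were DESeq2 1.42.0, RLE and upper-quartile scaling, no filter, at least 10 counts in every mouse, only the groups compared, voom with quality weights (limma 3.58.1), length and GC offsets, an FDR of 0.05 and each mouse left out. Leaving out D9 and D62 together was added after seeing the data. One marker gene and the counts and sum that include it are not reported here.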

Additional observations from a re-analysis of the deposited data

Results flagged for a closer look

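Among the 27 groups of 4 mice examined (9 genes in 3 groups), 2 held a mouse whose gap to its nearest neighbour was above Dixon's critical value for 1 end of the range, where chance gives about 5% of groups. The Myod1 level of High Run mouse D62 was 6.45 CPM, far below the other 3 mice of its group. The Myog level of Low Control mouse D8 was 4.38 CPM, far below the other 3 Low Control mice. High Control, with 3 mice, was not examined in this way.

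The Myh3 estimates for running had opposite signs in the 2 frailty groups. They were -0.25 in Low mice (SE 0.29, edgeR unadjusted p = 0.393) and 1.29 in High mice (SE 0.32). Below the Low Control mean lay 4 of 4 Low Run mice, and above the High Control mean 4 of 4 High Run mice. The Low estimate was smaller than its SE and the Low groups overlapped, so a fall with running in Low mice was not shown. How many of all genes had this order of mice was not counted. The interaction was 1.54 on the log2 scale (edgeR, unadjusted p = 0.00247, FDR 0.600), so the difference between the groups did not pass the correction over all genes. The cause was not tested.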

How the results depend on the processing

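By the edgeR fit reported 0 genes and 0 members were called in each of the 6 comparisons, and this count of 0 held with each of the 15 mice left out and without D9 and D62 together. DESeq2 called 11 genes in Low Run against Low Control, 15 in High Run against High Control, 1 in the interaction, 106 in the averaged run effect and 2 in High Control against Low Control. Without a filter on low counts edgeR called 86, 19, 4 and 81 genes in the first 4 of these and 6 in High Run against Low Run, and voom called 45 in High Run against High Control. The members called were 1 (Myh3) under DESeq2 and 1 (Myh3) without the filter, both in High Run against High Control. With at least 10 counts in every mouse Mymk and Mymx were not tested. A fit to only the groups compared could not be made for the interaction and the averaged effect.

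Members' log2 differences kept their direction in 782 of 810 values with a mouse left out and in 440 of 455 other alternatives. Outside the interaction and the averaged effect, many of the 810 refits left out a mouse of neither group compared. Such refits could hardly turn a direction, so the 782 overstate how far it was tested. With voom weights the reversed values were, for Low Run against Low Control, 0.036 (Myf5) and -1.22 (Mymx), for High Run against High Control 0.092 (Pax7), for the interaction 0.34 (Myod1), for the averaged effect -0.081 (Mymx), for High Control against Low Control -0.030 (Pax7), and for High Run against Low Run -0.051 (Myf5) and -0.34 (Mymk). Length and GC offsets gave -0.041 for Myf5 in the averaged effect. Without D9 and D62 together, reversals were 0.039 (Pax7, High Run against High Control), 0.27 (Myod1, interaction), -0.087 (Pax7, High Control against Low Control), and, in High Run against Low Run, -0.065 (Myf5), -0.056 (Myog) and -0.0065 (Mymx).

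With 1 mouse left out, ranges that crossed 0 were as follows. In Low Run against Low Control Myf5 ran from -0.25 to 0.0011 and Mymx from -1.09 to 1.07. In High Run against High Control Pax7 ran from -0.59 to 0.038 and Myod1 from -0.14 to 0.92, and in the interaction Myod1 ran from -0.56 to 0.51. In the averaged effect Pax7 ran from -0.12 to 0.19 and Myf5 from -0.020 to 0.11. In High Control against Low Control Pax7 ran from -0.087 to 0.37 and Myod1 from -0.88 to 0.19. In High Run against Low Run Myf5 ran from -0.10 to 0.18, Myog from -0.056 to 1.00, Myf6 from -0.38 to 0.0097 and Mymx from -0.19 to 1.99. The causes were not tested.

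No paired analysis was possible because each mouse belongs to 1 group and the labels give no number shared between groups. Counts of Mymk and Mymx were few, so a difference in them was detectable only where it was large. With 3 or 4 mice per group, the differences of most members could not be told from variation between mice by edgeR's test. At most 4 of the 9 members had an unadjusted p under 0.05 in any comparison. None passed an FDR of 0.1 by this test.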
